A study of Mus musculus with 18 samples.

Results

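The cells described here are plasma cells of the mouse small bowel lamina propria, the connective tissue layer beneath the gut epithelium. A cell was a member when under 20% of its unique molecular identifiers (UMIs, each the count of 1 captured RNA molecule) were mitochondrial, when it held at least 1 UMI of each of Mzb1, Xbp1 and Derl3, and when it held none of Ms4a1, Cd3e, Cd3d, Epcam and Lyz2. By this rule 3103 of 21347 lamina propria cells were members, which is 14.5%, and the whole series held 59338 cells. The cells were thus chosen by the measured levels of those 8 genes, which are given only as a description.

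The mice were St8sia6 knockout (KO), St8sia6 heterozygous (het) or St8sia6-sufficient wild type (WT). Each of 3 independent runs took 1 KO, 1 het and 2 WT mice, so a WT value pools 2 animals and a KO or het value is 1 animal. The deleted part of St8sia6, the strain and the age of the mice are not given in the sources used here. CD45-positive immune cells were enriched after a density gradient, KO, het and WT cells were marked with 3 different hashtag antibodies, and the cells of an organ were pooled for 5′ single-cell sequencing. The colon, in which epithelium and lamina propria were prepared together, serves as the comparison tissue.

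Plasma cells are the end stage of B cell differentiation and make antibody almost exclusively. In the gut lamina propria most of them secrete dimeric IgA, whose monomers are joined by the J chain and carried through the epithelium into the lumen by the polymeric immunoglobulin receptor. The secretory load is met by an enlarged endoplasmic reticulum (ER), built under the transcription factor Xbp1, in which chaperones fold immunoglobulin chains, oligosaccharyltransferase attaches N-glycans and ER-associated degradation (ERAD) clears misfolded chains. St8sia6 encodes a sialyltransferase that links a sialic acid to another sialic acid on glycans, and the products are ligands of sialic acid-binding Siglec receptors.

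The promoter stretches below are shown because they share letters among ER folding and ERAD genes that were read in these cells. The element CCAAT, then any 9 bases, then CCACG, known in mammals as the ER stress response element, was searched on both strands in the 250 bases before the start of each gene in RefSeq promoters of GRCm38.p6. It was found for 8 of 22 matched ER folding genes of 25 on the list (36.4%), for 2 of 14 ERAD genes and for 35 of 27025 genes in the table (0.13%), and no member of the lists for ER translocation, regulators of the unfolded protein response, ER to Golgi transport, MHC class II, homing, oxidative phosphorylation or immediate early genes held it. A match is a description of letters and not of a site in use. The stretches lie at chr2:34772010-34772058 (plus strand, Hspa5, the chaperone BiP), chr10:86705623-86705671 (minus strand, Hsp90b1, the chaperone GRP94), chr14:118937812-118937860 (plus strand, Dnajc3, a BiP co-chaperone), chr12:17266476-17266524 (plus strand, Pdia6, a disulfide isomerase) and chr19:6046517-6046565 (plus strand, Syvn1, the ERAD ubiquitin ligase). Each is printed 5′ to 3′ on the strand of its gene, and the capitals mark the CCAAT block and the CCACG block.
Hspa5: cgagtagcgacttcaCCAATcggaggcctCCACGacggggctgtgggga
Hsp90b1: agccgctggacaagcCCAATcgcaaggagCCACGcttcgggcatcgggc
Dnajc3: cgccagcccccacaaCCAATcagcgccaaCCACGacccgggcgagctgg
Pdia6: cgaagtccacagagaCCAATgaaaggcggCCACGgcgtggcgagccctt
Syvn1: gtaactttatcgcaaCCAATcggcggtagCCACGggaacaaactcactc

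In Creld2, Calr and Derl3 the element ran on the opposite strand, so that the blocks read CGTGG and ATTGG. Creld2 encodes an ER-resident protein that helps disulfide exchange, Calr the lectin chaperone calreticulin, and Derl3 a channel subunit of ERAD. They lie at chr15:88819505-88819553 (plus strand), chr8:84847060-84847108 (minus strand) and chr10:75893227-75893275 (plus strand). Hsp90b1 held a second copy in this orientation, at chr10:86705518-86705566 (minus strand). In the plasma cells, Dnajc3 stood at 398 UMIs per 1000000, Calr at 380, Derl3 at 330, Pdia6 at 288 and Syvn1 at 132. Canx and Ero1lb of the folding list also held the element and are not printed. Canx stood at 139 and Ero1lb at 75.4, against 174 and 74.6 in the other lamina propria cells.
Creld2: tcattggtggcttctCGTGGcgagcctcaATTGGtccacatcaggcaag
Calr: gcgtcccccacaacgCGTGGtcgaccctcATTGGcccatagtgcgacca
Derl3: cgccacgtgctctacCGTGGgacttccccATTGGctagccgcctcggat

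Levels below are sums of UMIs over plasma cells, given as CPM, the UMIs of a gene per 1000000 UMIs of the same cells. UMIs count molecules at the 5′ end and were not divided by gene length. Genotype was read per barcode ending from the hashtag with the highest median, and the 9 endings formed 3 captures (endings 1 to 3, 4 to 6 and 7 to 9), which gave 9 sums of 1 genotype in 1 capture. The 9 sums held 237 to 599 cells and 2706094 to 6071813 UMIs, with a median of 9543 to 10838 UMIs and 1610 to 1880 genes per cell. No barcode was shared within a capture and 190 were shared between captures. In 1 sum, WT of capture 3, the WT hashtag led in only 55.7% of all lamina propria cells, though in 96.3% of its plasma cells. Called genes are therefore also given for the 1787 plasma cells in which the expected hashtag held at least 80% of at least 10 hashtag UMIs, of which 75, 40 and 250 were KO in captures 1 to 3.

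Genes that the rule did not use fitted the label of the population, which is given as a description. Igha, the constant gene of the IgA heavy chain (chr12:113256204-113260236), took 20.5% of the UMIs of the median cell, and Jchain took 5.604%. All immunoglobulin genes together made up 53.3% of the UMIs of the median cell, and the share ran from 1.65% to 73.1% over all members. Sdc1, the surface marker CD138, stood at 227 CPM and was seen in 83.2% of the cells, against 156 CPM in all other lamina propria cells. The other lamina propria cells are a poor contrast, because they include plasma cells that failed the rule.

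Markers of other cell types were lower than in the other lamina propria cells, by differing amounts. Of the 12 T cell markers, summed levels were 16.1 to 61.8 CPM over the 9 sums, against 467 CPM in the other lamina propria cells, and the 2 markers at 0 were those that the rule sets to 0. The 12 myeloid markers summed to 395 to 600 CPM, against 948 CPM in the other lamina propria cells, with only Lyz2 at 0, and 443 CPM over all members was Cst3, a protease inhibitor gene. The 6 erythroid and mast cell markers summed to 33.6 CPM in KO of capture 1, 86.0 CPM in WT of capture 1, and 0.764 CPM or less in the other 7 sums. The 12 epithelial markers summed to 32.9 to 742 CPM, with only Epcam at 0, and were highest in WT of capture 3. The 8 stromal and endothelial markers summed to 94.2, 143 and 80.4 CPM in KO, 49.6, 48.4 and 29.3 in het, and 54.0, 45.6 and 32.1 in WT of captures 1 to 3, with none at 0. B cell genes that plasma cells keep were present, Cd79a at 774 CPM and Cd79b at 141 CPM.

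Igha was also read in cells of another type, and whether this came from free RNA or from doublets was not tested. In 1188 lamina propria T cells, which held Cd3e or Cd3d and none of the 3 plasma cell genes of the rule, 99.5% had at least 1 Igha UMI. The median plasma cell had 2104 Igha UMIs at a depth of 10233 UMIs, against 12 Igha UMIs at a depth of 2336.5 UMIs in the median T cell. Igha made up 19.6% of all plasma cell UMIs and 0.653% of all T cell UMIs.

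Cells close to the rule's limits were shallower than the rest. The 105 members with exactly 1 Mzb1 UMI had a median of 2902 UMIs, the 119 cells that failed for lack of Mzb1 alone had 2016, and the 2998 members with 2 or more had 10394. Derl3 removed the most cells of the 3 required genes, with 812 members at exactly 1 UMI (median 7753 UMIs in all) and 1316 cells outside (median 3069.5). The criterion on Epcam, the epithelial adhesion molecule, removed most of the cells lost to a marker of another type. It alone kept out 2804 cells, of which 57.2% held exactly 1 Epcam UMI. The members carried Igha at 196383 CPM, Jchain at 56120 CPM and St8sia6 at 56.0 CPM, against 177192, 56580 and 53.8 CPM in these cells. Of the goblet cell genes, the members carried Zg16 at 2.34 CPM and Tff3 at 3.34 CPM, against 78.0 and 47.0 CPM in these cells. How much of their Epcam came from free RNA was not tested.

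Among the ER folding genes, all 25 were detected and 20 had a higher CPM in members than in the other lamina propria cells, which is a description because the rule made this contrast. In members, Hsp90b1 stood at 3292 CPM, Hspa5 at 1445, Txndc5 (a disulfide isomerase) at 1116, Manf (a secreted ER stress protein) at 651, Pdia4 at 462 and Creld2 at 408. Of the genes for translocation into the ER and N-glycosylation, 24 of 29 were higher in members, among them Ssr4 (a translocon-associated subunit) at 1241 CPM and Sec11c (a signal peptidase subunit) at 1095 CPM. ERAD genes were higher in 13 of 15 list members found in the files, led by Herpud1 at 875 CPM and Edem1 (a mannosidase-like factor) at 677 CPM. Every member of the lists for MHC class II, antioxidant enzymes and the cell cycle was lower in plasma cells than in the other lamina propria cells.

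Receptors and regulators known from gut plasma cells were detected in most or many members. Tnfrsf13b (TACI) was seen in 80.2% of the cells at 202 CPM and Tnfrsf17 (BCMA, the receptor for the survival factor APRIL) in 58.4% at 116 CPM. Ccr10, the receptor for mucosal chemokines of epithelia, was seen in 61.1% at 137 CPM. Ccr9, the receptor for the small bowel chemokine CCL25, was seen in 38.6% at 58.3 CPM. Ctla4 and Cd274 (PD-L1), both immune checkpoint genes, stood at 242 and 151 CPM and were seen in 75.1% and 60.4% of the cells. Of the sialic acid pathway, St6gal1 (which adds α-linked sialic acid to N-glycans) stood at 314 CPM, St8sia4 (a polysialyltransferase) at 212 and Cmah (which converts the acetyl to the glycolyl form of sialic acid) at 181.

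Nearly every member was an IgA cell. A cell was typed when it had at least 10 heavy-chain constant UMIs and its top gene held at least 50% of them, and all 3103 could be typed. Igha led in 3100 cells, or 99.9% (95% exact Clopper-Pearson interval 99.7% to 99.98%, counting error only). The top gene held at least 80% of heavy constant UMIs in 3097 cells. The other 3 were IgG cells. An Ighg2b cell of WT in capture 2 held 602 Ighg2b UMIs of 616 heavy constant UMIs, an Ighg2b cell of KO in capture 3 held 1967 of 2025, and an Ighg2c cell of KO in capture 2 held 1864 of 1880. No cell was led by Ighm, and 0 of 3103 cells allows a share of up to 0.0967%.

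Minor isotype transcripts were present beside Igha. At least 1 Ighm UMI was seen in 9.57% of the members, against 10.4% of T cells at their lower depth without matching depth, and 79 members (2.55%) held 10 or more and the highest held 362, where the highest T cell held 7. At least 1 Ighg2b UMI was seen in 27.5% of the members and in 3.20% of T cells, and 167 members (5.38%) held 10 or more.

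The light chain was kappa in most cells. Lambda led in 91 of 3098 typed cells, or 2.94% (95% exact Clopper-Pearson interval 2.37% to 3.59%). Constant and variable genes were typed separately and matched in nearly all cells, with 89 lambda cells having a lambda V gene and 1 a kappa V gene, and 2833 kappa cells having a kappa V gene and 3 a lambda V gene. By capture 1 to 3 the lambda share was 4.85%, 3.49% and 2.00% in KO, 3.13%, 2.53% and 1.90% in het, and 3.20%, 2.67% and 3.38% in WT. The genotypes overlapped, and KO minus WT was 0.364 percentage points (exact two-sided permutation test, p = 0.7). It was -0.280 without capture 1, 0.139 without capture 2 and 1.23 without capture 3. With 3 values against 3 the smallest p that this test allows is 0.1, and over the 7 such tests every adjusted p for KO against WT was 1.

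The V genes, which encode most of the antigen-binding part of each chain, were broadly used. A V gene was assigned when it had at least 3 UMIs and at least 50% of the cell's V UMIs, which typed 2927 heavy and 2926 light chains. The typed cells used 93 of 185 heavy V genes and 88 of 163 light V genes in the files, and V genes of near-identical sequence may share reads. Averaged over the 9 sums, the 6 heavy V genes used most were Ighv1-26 (5.99% of typed cells), Ighv3-6 (4.96%), Ighv1-81 (4.71%), Ighv1-53 (4.66%), Ighv1-55 (3.35%) and Ighv9-3 (3.17%), together 26.8%. The 6 light V genes used most were Igkv10-96 (7.48%), Igkv1-110 (7.12%), Igkv1-117 (5.29%), Igkv6-23 (3.17%), Igkv1-135 (2.93%) and Iglv1 (2.91%), together 28.9%. A second V gene with at least 20% of the top gene's UMIs was seen in 11.9% of cells for the heavy and 16.1% for the light chain.

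**Figure D1:**
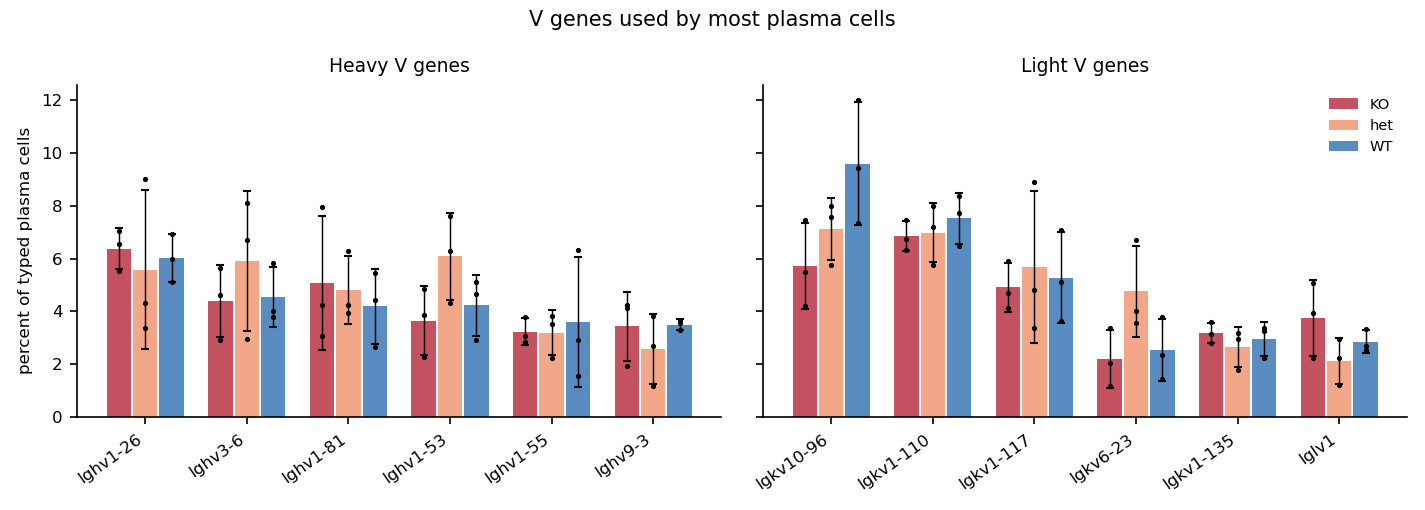
Share of typed plasma cells (percent, vertical axis) that used each of the 6 most used heavy V genes and light V genes, by genotype. Bars are means of 3 captures, points are captures and error bars are SD. Igkv10-96 averaged 5.72% in KO, 7.11% in het and 9.60% in WT, and its KO and WT points overlap.

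Igkv10-96 was used by 7.45%, 4.23% and 5.49% of typed KO cells in captures 1 to 3, by 7.56%, 5.78% and 8.00% of het cells and by 7.37%, 9.43% and 12.0% of WT cells. The KO value of capture 1 lay above the WT value of the same capture, so the groups overlapped. Heavy and light V genes could be paired in 2864 cells, which held 1334 different pairs, and 756 pairs were seen in 1 cell. The pair of Ighv1-81 with Igkv1-110 was the most frequent, with 42 cells in 8 of the 9 sums, and Ighv1-26 with Iglv1 followed with 28 cells in 7 sums. At the other end, 42 pairs had 5 or more cells in 1 sum, and 1 pair reached 14, which is a V pair count and not a count of clones because junctions were not read. The pair of Ighv1-20 with Igkv10-96 had all of its 11 cells in 1 sum. The effective number of heavy V genes (inverse Simpson index) was 48.8, 43.5 and 37.7 in KO, 39.6, 30.5 and 40.9 in het, and 43.4, 41.5 and 39.6 in WT. KO and WT overlapped, and the difference of 1.86 (exact two-sided permutation test, p = 0.6) was 0.0759 without capture 1 and 3.75 without capture 3. A WT value pools the V genes of 2 mice and a KO or het value those of 1. Genotype and the number of mice pooled therefore cannot be told apart in this difference.

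A small fraction of members carried cell-cycle transcripts. Over the 20 genes of the cell-cycle list, 1653 cells had no UMI, 915 had 1, 460 had 2 to 9, and 75 had 10 or more, a limit chosen after the values were seen. These 75 cells were 2.42% of the members and came from all 3 captures. Compared with the remaining 3028 members they had 2936 against 1712 genes and 12814 against 10170 UMIs in the median cell. Immunoglobulin genes took 28.7% of their summed UMIs against 53.2%, and Igha stood at 92660 against 199835 CPM. Mki67 stood at 584 against 11.4 CPM and Top2a, a DNA topoisomerase of dividing cells, at 453 against 6.15 CPM, both of which are part of the list that chose the cells.

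The same 75 cells also stood apart in the CPM of other genes, given without a test. Immunoglobulin took a smaller share of their UMIs, which by itself raises the CPM of all other genes. ER folding genes summed to 22395 against 13047 CPM and oxidative phosphorylation genes to 7386 against 3501 CPM. MHC class II genes summed to 2535 against 1471 CPM. Sdc1 moved the other way, at 125 against 231 CPM, and so did Xbp1, at 702 against 955 CPM. Ccr10 stood at 202 against 134 CPM, a rise no larger than the smaller immunoglobulin share gives by itself. What part of the other rises that share gives was not tested.

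To compare genotypes at 1 depth, each cell was thinned to 2000 UMIs, which left out 13 KO, 16 het and 49 WT cells, and cells with at least 2 cell-cycle UMIs were counted. Their share was 6.39%, 4.59% and 3.03% in KO, 3.6%, 4.68% and 3.52% in het, and 3.71%, 2.52% and 2.52% in WT of captures 1 to 3. KO was higher than WT in each of the 3 captures, and the 2 groups overlapped. The difference of means was 1.76 percentage points (exact two-sided permutation test that does not pair captures, p = 0.2). Without thinning the shares were 13.7% to 20.2% in KO, 15.2% to 17.9% in het and 17.1% to 20.5% in WT. What part free RNA had in these counts was not tested.

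Plasma cells made up 11.6%, 15.8% and 18.7% of KO lamina propria cells, 12.0%, 13.4% and 15.9% of het cells and 15.7%, 14.0% and 11.8% of WT cells in captures 1 to 3. The means were 15.4% ± 3.56 in KO, 13.8% ± 2.00 in het and 13.9% ± 1.95 in WT (SD, n = 3 each, 1 value per capture). KO was higher than WT in 2 of 3 captures, and the difference of 1.53 percentage points was within the spread (exact two-sided permutation test, p = 0.6). It was 4.36 points without capture 1 and -1.14 points without capture 3. Without the Epcam criterion the shares were 23.4%, 29.0% and 33.6% in KO, 24.5%, 25.8% and 30.7% in het and 32.0%, 26.3% and 21.0% in WT. Among cells that passed the hashtag check the difference turned to -9.34 percentage points (exact permutation p = 0.1), where the check kept 10.6% to 41.7% of KO and 37.4% to 82.5% of WT plasma cells. The KO hashtag led in 98.9% to 100% of KO plasma cells. In KO of capture 2 the median plasma cell counts were 433 for the KO, 82 for the het and 164 for the WT hashtag. The check thus removed cells unevenly between sums. In WT of capture 3 the WT hashtag led in only 55.7% of all lamina propria cells.

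**Figure D2:**
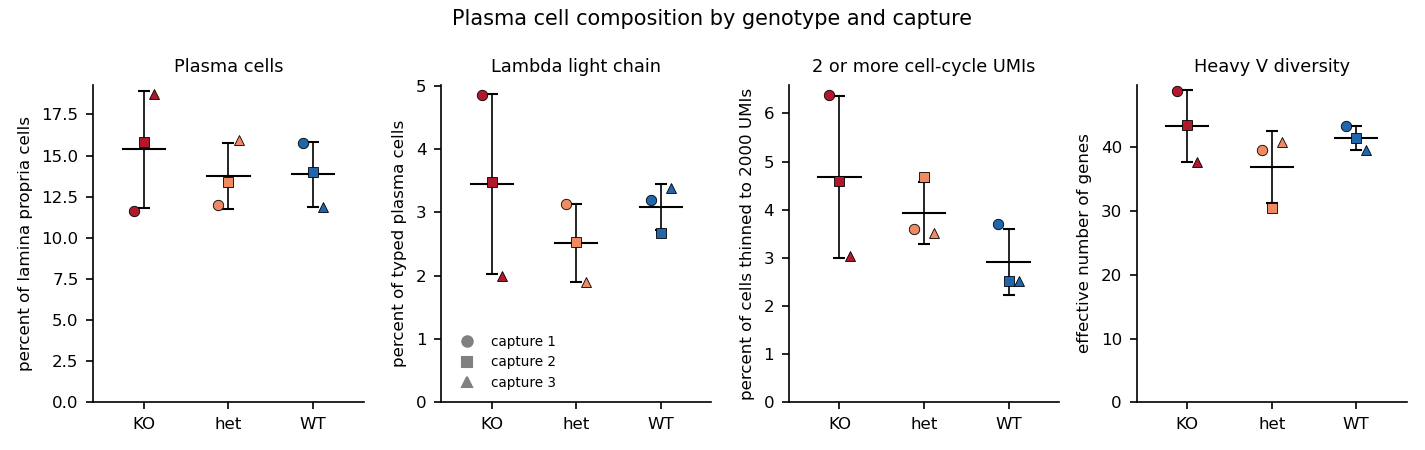
Plasma cells as percent of lamina propria cells, lambda cells as percent of typed plasma cells, cells with 2 or more cell-cycle UMIs as percent of plasma cells thinned to 2000 UMIs, and the effective number of heavy V genes, by genotype. Points are captures, horizontal lines are means and error bars are SD (n = 3). KO and WT points overlap in all 4 panels.

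St8sia6 (chr2:13651018-13794734) followed the genotype in plasma cells. It stood at 36.9, 41.8 and 43.2 CPM in KO (111, 178 and 262 UMIs), at 55.3, 58.8 and 57.5 CPM in het and at 64.1, 74.8 and 76.5 CPM in WT (341, 294 and 250 UMIs). The 3 genotypes did not overlap, and het lay between KO and WT in every capture. The log2 fold change of KO over WT was -0.85 (SE 0.08, edgeR quasi-likelihood test with Benjamini-Hochberg adjustment over 9385 genes, adjusted p = 0.0186). For het over WT it was -0.35 (SE 0.08, adjusted p = 0.508) and for KO over het -0.50 (SE 0.08, adjusted p = 0.269). Groups of 3 that did not overlap were seen for 14.5% of all genes tested between KO and WT, 11.6% between het and WT and 9.79% between KO and het. In cells that passed the hashtag check the log2 fold change of KO over WT was -1.22 (adjusted p = 0.0163). Without capture 1, 2 or 3 the log2 fold change was -0.84, -0.84 and -0.86, and the adjusted p was 0.116, 0.252 and 0.154.

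Outside the rule the order was the same over all other lamina propria cells, and it varied in T cells and in the colon. Over all other lamina propria cells St8sia6 stood at 29.6, 36.9 and 34.8 CPM in KO and 40.4, 40.8 and 47.5 in het. WT stood at 48.5, 65.1 and 57.5 CPM. Those cells include plasma cells that failed the rule. In the cells left out for Epcam alone, St8sia6 stood at 34.5, 39.4 and 38.9 CPM in KO, 52.7, 61.3 and 54.9 in het and 58.5, 81.1 and 70.4 in WT, in the same order as in the members. In lamina propria T cells it was higher in KO in every capture but rested on few UMIs, at 32.3, 18.7 and 41.6 CPM in KO (11, 8 and 29 UMIs), 14.1, 18.0 and 4.46 CPM in het (7, 6 and 1) and 25.1, 16.7 and 18.4 CPM in WT (4, 4 and 2). In plasma cells of the colon it was read from 8 to 22 UMIs a sum in KO, 4 to 9 in het and 8 to 45 in WT, and stood at 28.6, 18.0 and 22.3 CPM in KO, 14.9, 14.2 and 20.9 in het and 57.1, 58.9 and 20.8 in WT, where KO and WT overlapped and KO lay above het in each capture. Transcripts of the gene remained in KO cells. Since the deleted part is not given, the level checks the genotype labels only as far as a partial fall does. The 5 genes whose level ranked most like St8sia6 over the 9 sums were Pik3c2a (Spearman's rho 0.967), 1810062G17Rik (0.95), Gm37168, Cped1 and A330023F24Rik (0.933 each), which is a description over sums that share captures.

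Between KO and WT plasma cells, the number of called genes was small and depended on the setting. Of 9385 genes tested, 8 passed the threshold (adjusted p under 0.05), which is 0.0852%. Of these, 5 were higher (0.0533%) and 3 lower (0.0320%) in KO, and the unadjusted p was under 0.05 for 854 genes. The count was 1 without capture 2, 3 without capture 3, 43 with DESeq2, 103 with no filter on low counts and 122 without immunoglobulin genes. The chemokine gene Cxcl10, known as an interferon-induced ligand of CXCR3 (chr5:92346638-92348889), rose. It stood at 72.9, 78.0 and 70.0 CPM in KO, 50.3, 48.0 and 52.4 in het and 34.8, 38.4 and 33.7 in WT. The genotypes did not overlap and het lay between them in each capture. The log2 fold change of KO over WT was 1.02 (SE 0.09, edgeR adjusted p = 0.0162), and for het over WT it was 0.47 (adjusted p = 0.437). It was 0.92 without the Epcam criterion (adjusted p = 0.116), 0.94 under a stricter rule of at least 2 UMIs per gene (adjusted p = 0.155) and 0.998 to 1.02 without any 1 capture (adjusted p 0.116 to 0.213). In cells that passed the hashtag check it was 1.07 (adjusted p = 0.017).

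Cxcl10 showed the same order outside the plasma cells, with 86.7, 104 and 81.9 CPM in KO, 52.0, 58.4 and 41.1 in het and 47.0, 56.5 and 30.5 in WT over the other lamina propria cells. How much of the plasma cell value came from RNA of other cells was not tested. Of the interferon-stimulated list, 0 of 10 tested members passed. At an unadjusted p under 0.05, 3 were higher and none lower, beside 854 of all 9385 genes in either direction. The median log2 fold change was 0.09, against 0.00 over all genes.

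Igfbp7, a secreted protein of stroma and endothelium, was also higher in KO. It stood at 48.6, 17.8 and 9.06 CPM in KO, 15.0, 6.28 and 1.45 in het and 6.39, 1.27 and 1.53 in WT. The log2 fold change was 3.01 (SE 0.23, edgeR adjusted p = 0.01). KO and WT did not overlap, but het overlapped both. Stromal markers moved with it: 7 of 8 had a log2 fold change above 0 with a median of 2.74, and none passed. An unadjusted p under 0.05 was seen for 5 of the 8, beside 854 of all 9385 genes. Their summed levels per capture are given above. In the other lamina propria cells Igfbp7 stood at 125, 130 and 96.0 CPM in KO and at 25.4, 57.5 and 18.2 CPM in WT. Without immunoglobulin genes 4 of the 8 stromal markers passed as higher, Sparc (log2 3.07), Dcn (3.08), Col3a1 (3.64) and Col1a2 (3.55). The part of stromal RNA in the plasma cell value was not tested. The call was lost without the Epcam criterion (log2 1.58, edgeR adjusted p = 0.258), without the deepest 5% of cells (log2 2.08, adjusted p = 0.416) and without any 1 capture (adjusted p 0.0505 to 0.188).

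Gm42031, annotated as a long noncoding RNA (chr8:85125923-85131814), stood at 79.9, 99.8 and 47.6 CPM in KO, 36.1, 41.0 and 23.5 in het and 14.9, 28.8 and 19.3 in WT (log2 1.82, edgeR adjusted p = 0.0243). Every KO value lay above every WT value, in the other lamina propria cells too (96.6, 114 and 47.5 CPM in KO, 17.5, 29.3 and 25.4 CPM in WT), and the call was lost without capture 2 (adjusted p = 0.252) or capture 3 (adjusted p = 0.0809). Abhd8, a hydrolase gene (chr8:71456700-71464707), fell, with 5.99, 5.402 and 7.41 CPM in KO, 7.86, 7.76 and 9.76 in het and 13.7, 11.2 and 20.8 in WT. The log2 fold change was -1.29 (SE 0.15, edgeR adjusted p = 0.049). KO and WT did not overlap for Abhd8, and the call was lost without any 1 capture (adjusted p 0.19 to 0.534). Nor did they overlap in the other lamina propria cells, with 7.74, 9.47 and 10.3 CPM of Abhd8 in KO and 12.8, 11.9 and 14.8 CPM in WT. Under the hashtag check Igfbp7, Gm42031 and Gm10260 passed (log2 4.20, 1.86 and -7.96), and Abhd8 did not (log2 -1.57, adjusted p = 0.188). Gm10260 stood at 1.33, 2.11 and 0.165 CPM in KO, 3.21, 1.48 and 0.723 in het and 118, 190 and 5.20 in WT (log2 -6.36, edgeR adjusted p = 0.00166). WT of capture 3 was far below the other 2 WT values, and the other lamina propria cells showed the same, with 1.86, 1.88 and 0.543 CPM in KO and 198, 322 and 2.22 CPM in WT. For het over WT, Gm10260 alone passed (log2 -5.78, edgeR adjusted p = 0.00343), 1 of 9385 genes tested (0.0107%), while the unadjusted p was under 0.05 for 667. The count was 5, 5 and 2 without captures 1, 2 and 3.

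Each of the other 2 called genes rested on 1 sum. Ighv11-2 stood at 631 CPM in KO of capture 1 and at 3.39 CPM or less in every other sum, and Ighv7-4 stood at 277 CPM in KO of capture 2 and at 3.56 CPM or less elsewhere. Ighv11-2 was the assigned heavy V gene of 3 cells and Ighv7-4 of 2. Between KO and het no gene passed (0.00%), while the unadjusted p was under 0.05 for 465 and DESeq2 called 25. Without captures 1, 2 and 3 the count was 12, 5 and 3.

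**Figure D3:**
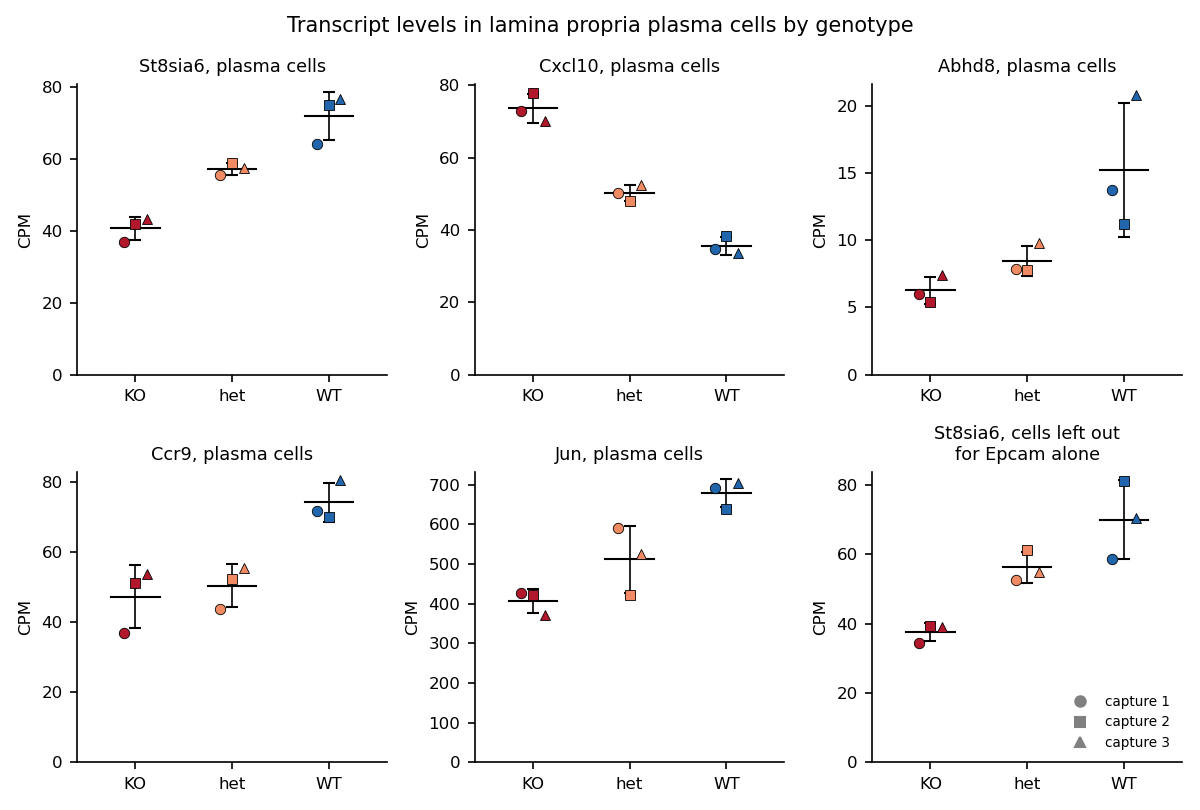
CPM (vertical axis) of St8sia6, Cxcl10, Abhd8, Ccr9 and Jun in plasma cells, and of St8sia6 in the cells left out for Epcam alone, by genotype. Points are captures, horizontal lines are means and error bars are SD (n = 3). In each panel the KO points lie apart from the WT points.

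Immunoglobulin took 52.7% of the UMIs in the median sum, and the count of called genes depended on whether immunoglobulin genes were in the fit. Log2 fold changes of genes called in both fits hardly moved. Without immunoglobulin genes St8sia6 stood at -0.848 against -0.847, Cxcl10 at 1.01 against 1.02 and Gm10260 at -6.39 against -6.36. Why the count changed was not tested. When all immunoglobulin genes were left out before library sizes were set, 122 of 9122 genes passed between KO and WT (1.34%), 57 higher (0.625%) and 65 lower (0.713%), against 8 with them. The 57 higher genes included the 4 stromal markers named above and the matrix genes Lama2 (log2 4.16), Fbn1 (3.61), Dpt (3.72), Mgp (2.41) and Col6a2 (3.26), and the part of stromal RNA in these calls was not tested. The 65 lower genes included the defensin gene Defa30 (log2 -1.59) and the erythroid marker Hbb-bs (-1.26), each lower in 2 of 3 captures, and Itln1 (-1.33), lower in 3. On all genes, 8 of 8 tested epithelial markers were below 0 (median -0.33) and none passed. The part of epithelial and erythroid RNA in the lower calls was not tested. In what follows, a gene said to pass without immunoglobulin did not pass in the fit on all genes.

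Immediate early and heat shock genes, which respond quickly to stimulation and stress, were mostly lower in KO. Of 20 tested, 16 had a log2 fold change below 0, with a median of -0.35 against 0.00 over all genes. At an unadjusted p under 0.05, 8 were lower and 2 higher, beside 854 of all 9385 genes in either direction. None passed in the fit on all genes. Their summed level was 4671, 4564 and 4677 CPM in KO, 5325, 4677 and 5125 in het and 5860, 5751 and 5539 in WT. Jun, a subunit of the transcription factor AP-1, stood at 427, 423 and 371 CPM in KO, 591, 422 and 524 in het and 692, 639 and 706 in WT (log2 -0.76, edgeR adjusted p = 0.252). KO and WT did not overlap for Jun. Without immunoglobulin 5 members passed as lower (Jun, Fosb, Dnajb1, Fos and Jund, log2 -0.77, -0.58, -0.74, -0.37 and -0.33) and 1 as higher (Nfkbia, the inhibitor of NF-kappa-B, log2 0.57).

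Regulators of the unfolded protein response and its PERK arm leaned the same way. Of 15 tested, 14 had a log2 fold change below 0 (median -0.24), and none passed on all genes. At an unadjusted p under 0.05, 5 were lower and 0 higher, beside 854 of all 9385 genes in either direction. Without immunoglobulin, Chac1, a glutathione-degrading enzyme (log2 -1.003), and Eif2ak3, the ER stress sensor PERK (log2 -0.33), passed as lower. Chac1 stood at 6.32, 4.93 and 9.39 CPM in KO, 6.78, 11.8 and 11.2 in het and 15.4, 12.0 and 13.2 in WT.

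The ER's own machinery leaned the other way, by small amounts. A log2 fold change above 0 was seen for 23 of 25 folding genes (median 0.13), 25 of 29 translocation and N-glycosylation genes (median 0.12), 12 of 15 ERAD genes (median 0.06) and 18 of 23 genes of ER to Golgi transport (median 0.07). None passed on all genes. Without immunoglobulin 3 passed as higher, Sdf2l1 (a BiP cofactor, log2 0.36), Fkbp11 (an ER prolyl isomerase, log2 0.37) and Ssr2 (a translocon-associated subunit, log2 0.44). Fkbp11 stood at 141, 125 and 121 CPM in KO, 131, 121 and 123 in het and 97.6, 104 and 90.6 in WT.

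MHC class II genes of the list, which present peptides to CD4 T cells, had a log2 fold change above 0 in 7 of 7 tested (median 0.56), and none passed on all genes. A class II gene outside the list, H2-Eb2, passed as lower without immunoglobulin (log2 -0.93). Its mean was 14.0 CPM in KO and 26.5 CPM in WT, and KO was lower in 3 of 3 captures. H2-Eb1, a beta chain, passed as higher without immunoglobulin (log2 1.08), with 93.9, 114 and 109 CPM in KO, 143, 77.2 and 78.4 in het and 45.1, 42.2 and 63.0 in WT. KO and WT did not overlap, and het of capture 1 was the highest value. Cd74, the invariant chain, stood at 1399, 1111 and 1153 CPM in KO and at 1147, 1225 and 937 CPM in WT, which overlap (log2 0.11, edgeR adjusted p = 0.864). Myeloid markers, which carry much MHC class II, summed to 486, 485 and 510 CPM in KO, 600, 413 and 456 in het and 461, 466 and 395 in WT. Most of that sum is Cst3, and over the 8 tested myeloid markers the median log2 fold change was 1.001, with 6 above 0. Of them 2 were higher at an unadjusted p under 0.05, beside 854 of all 9385 genes in either direction. Apoe alone (log2 1.56) passed as higher without immunoglobulin. The part of myeloid RNA in the MHC class II values was not tested.

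Among homing genes, Ccr9 stood at 36.9, 51.0 and 53.7 CPM in KO, 43.6, 52.1 and 55.3 in het and 71.7, 70.0 and 80.5 in WT. Both KO and het lay below every WT value. The log2 fold change of KO over WT was -0.69 (SE 0.11, edgeR adjusted p = 0.14 on all genes), and it passed without immunoglobulin (log2 -0.68, adjusted p = 0.00281). Of the 15 homing and adhesion genes tested, 10 were below 0 and 5 above (median -0.04). Ccr10 lay on the other side at 164, 152 and 145 CPM in KO, 135, 150 and 123 in het and 121, 123 and 118 in WT (log2 0.32, edgeR adjusted p = 0.486). Tigit, an inhibitory receptor, passed as higher without immunoglobulin (log2 0.46).

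The remaining lists held no called member on all genes other than St8sia6. Cell-cycle genes had a log2 fold change above 0 in 18 of 19 tested (median 0.52, against 0.00 over all genes). An unadjusted p under 0.05 was seen for 2 of the 19, a share close to the 854 of all 9385 genes. Their summed level was 258, 218 and 132 CPM in KO, 107, 215 and 166 in het and 142, 129 and 168 in WT, which overlap. Oxidative phosphorylation genes were above 0 in 18 of 20 (median 0.15), and 1 of them, Ndufs6, passed without immunoglobulin (log2 0.39). Survival and death genes had a median of -0.16 over 17 tested, autophagy and amino acid transport genes -0.19 over 16, antioxidant genes 0.09 over 13, and plasma cell identity genes -0.03 over 22. In the sialic acid list, 1 of 20 tested genes passed, the targeted St8sia6, and the median was -0.06.

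**Figure D4:**
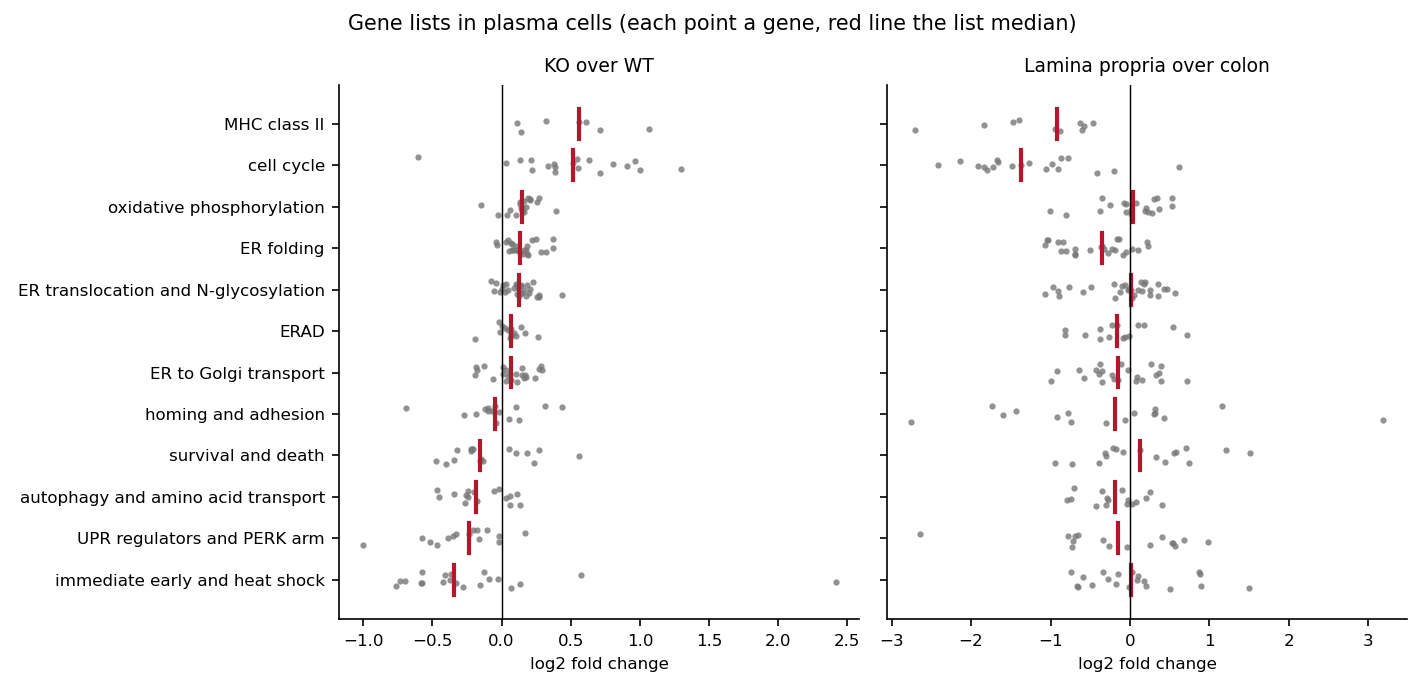
Log2 fold change (horizontal axis) of each tested gene of 12 lists in plasma cells, for KO over WT and for lamina propria over colon. Each point is a gene and each red line is the list's median. Between KO and WT the medians run from 0.56 for MHC class II to -0.35 for immediate early and heat shock genes, and in lamina propria over colon MHC class II lies at -0.91 and the cell cycle at -1.37.

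The same rule found 261 plasma cells among 21286 colon cells (1.23%). Tissue was compared over 3 captures each, all genotypes summed, with 10893200 to 12106300 UMIs in lamina propria and 1424820 to 1801920 in colon captures. Tissue, the preparation (lamina propria alone, or lamina propria with epithelium) and the library cannot be told apart here. Of 10091 genes tested, 2244 passed (22.2%), 1110 higher in lamina propria (11.0%) and 1134 lower (11.2%), and the 2 groups of captures did not overlap for 41.8% of all genes. Without the filter on low counts 60.3% of the calls were higher, against 49.5% with it, and 658 genes were called from WT cells alone. The count was 1390 without lamina propria capture 2 and 1430 without capture 3.

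Immunoglobulin transcripts were divided differently in both tissues. All immunoglobulin genes together took 52.7%, 51.3% and 53.2% of UMIs in lamina propria captures and 53.8%, 55.4% and 56.2% in colon captures. Heavy constant genes took 18.9%, 18.7% and 21.4% in lamina propria and 3.93%, 4.54% and 3.95% in colon, while heavy V genes took 5.45%, 5.31% and 5.07% in lamina propria and 19.1%, 18.9% and 17.8% in colon. Light V genes took 17.6% to 18.9% in lamina propria and 27.6% to 31.8% in colon. Igha was higher in lamina propria (log2 2.27, SE 0.35, edgeR adjusted p = 0.00421), as was Igkc, the kappa constant gene (log2 1.73, edgeR adjusted p = 0.00767), whereas Jchain did not pass (log2 -0.04, adjusted p = 0.941). Whether the split between constant and V genes goes with tissue or library cannot be told apart, and its part in the other comparisons between tissues was not tested.

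Of 16 tested homing genes, 3 were higher and 5 lower in lamina propria (median -0.18), where 11.0% of all genes were higher and 11.2% lower. Ccr9 stood at 55.2, 58.1 and 61.3 CPM in lamina propria captures and at 2.11, 6.71 and 9.43 CPM in colon captures (log2 3.19, SE 0.29, edgeR adjusted p = 8.10e-04). Cxcr3, the receptor for CXCL10, was lower in lamina propria, at 3.24, 5.42 and 3.72 CPM against 35.8, 28.2 and 20.5 CPM in colon (log2 -2.76, SE 0.24, edgeR adjusted p = 6.94e-04). Klf2, a transcription factor that controls trafficking, was lower too, at 116, 116 and 104 CPM against 338, 307 and 361 CPM in colon (log2 -1.59). Ccr9, Cxcr3 and Klf2 passed in 10 of 10 alternatives. Itgb7, S1pr1 and Cd9 were also lower and Cxcr4 and Itgal higher, but Itgb7 and Itgal passed in 4 of 10 alternatives, Cd9 in 6 of 10, Cxcr4 in 7 of 10 and S1pr1 in 5 of 6. Ccr10, at a log2 fold change of -0.30, did not pass (edgeR adjusted p = 0.0945).

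Of the genes with the smallest adjusted p, those higher in lamina propria included Prg2, an eosinophil granule protein gene (log2 2.42), Zhx2, a transcriptional repressor (2.11), Inpp5a (1.82), Chst11, a chondroitin sulfotransferase (1.82), Satb1, a chromatin organizer (1.71), Hdac9, a histone deacetylase (1.64), Crem (1.501), Kdm6b, a histone demethylase (1.47), Pls1 (1.42) and Plxnc1 (1.35). Prg2 stood at 112, 84.4 and 98.5 CPM in lamina propria captures and at 18.2, 18.8 and 17.8 CPM in colon captures, which do not overlap. Those lower in lamina propria included CAAA01147332.1 (log2 -2.15), Gm46620 (-1.98), Napsa, an aspartic protease gene (-1.75), Pkm, the glycolytic pyruvate kinase (-1.61), Rnh1, the ribonuclease inhibitor (-1.61), Psmc2, a proteasome subunit (-1.55), Capg, an actin-capping protein (-1.41), Plp2 (-1.30), and the class I genes H2-Q7 (-1.29) and H2-T22 (-1.17). Pkm stood at 77.5, 70.0 and 68.4 CPM in lamina propria captures and at 217, 214 and 225 CPM in colon captures. All 20 had an edgeR adjusted p of 6.31e-04 or less.

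MHC class II genes were lower in lamina propria plasma cells in 8 of 10 tested, none was higher, and the median was -0.91 against -0.02 over all genes. Of all genes, 11.2% were lower and 11.0% higher. Cd74 stood at 1281, 1160 and 1087 CPM in lamina propria and at 2287, 2403 and 2082 CPM in colon (log2 -0.95, edgeR adjusted p = 0.0191), and H2-Aa at 67.9, 59.1 and 56.3 CPM against 105, 148 and 84.4 CPM (log2 -0.88, edgeR adjusted p = 0.0147). Neither passed from WT cells alone (edgeR adjusted p = 0.188 and 0.218) or without lamina propria capture 2 or 3 (adjusted p 0.0863 and 0.089 for Cd74, 0.052 and 0.0506 for H2-Aa), and Cd74 did not pass without capture 1 (adjusted p = 0.0566). Interferon-related genes were mixed: Irf7 (log2 -1.80), Gbp2 (-1.54) and Gbp4 (-1.81) were among those lower and Ifitm3 (1.30) was higher, of 10 tested.

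ER folding genes were lower in lamina propria in 9 of 25 tested, and none was higher (median -0.35). The counts of this paragraph stand beside 11.2% lower and 11.0% higher over all genes, with a median of -0.02. Pdia4 stood at 425, 520 and 444 CPM in lamina propria and at 853, 1226 and 832 CPM in colon (log2 -1.07), and Pdia3, Ero1l, Selenof, Pdia6 and Dnajb11 were among the others. Of the 29 translocation and N-glycosylation genes, 7 were lower and 2 higher, and the lower ones included the oligosaccharyltransferase genes Rpn1, Rpn2, Ddost, Stt3a and Stt3b (log2 -0.77, -0.89, -0.91, -0.97 and -0.59). Of the 16 regulators, 4 were higher, among them Eif2ak3 (log2 0.98), Atf4 (0.54) and Ddit3 (0.54). The 4 lower were Trib3 (-2.65), Asns (-0.69), Chac1 (-0.78) and Xbp1, a gene of the rule. Atf4 and Asns passed in 5 of 10 alternatives, and Chac1 passed in 3 of 10 and changed sign in 1. Xbp1 (log2 -0.72) and Derl3 (-0.81) were lower, but the rule requires both in each tissue. They are given as a description, also where Xbp1 is counted among the regulators.

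Cell-cycle genes were lower in lamina propria in 7 of 19 tested and higher in 1, Pcna (median -1.37). Over all genes 11.2% were lower and 11.0% higher, which holds for each list of this paragraph. Of the 7 lower ones, Tyms and Rrm2 passed in 9 of 9 alternatives and Cdk1 in 8 of 9. Cdc20, Ccna2, Aurkb and Ccnb1 passed in 4 of 9, and Pcna in 6 of 10. Bcl2, the anti-apoptotic factor, was higher, at 58.0, 67.8 and 59.1 CPM against 19.0, 18.1 and 26.6 CPM in colon (log2 1.51, edgeR adjusted p = 0.00108), as were Cflar (0.58), Il6st (0.70) and Bmf (1.21). Bak1 and Bax were among the lower ones, and 4 were higher and 3 lower of 17 tested survival genes. Bcl2 passed in 10 of 10 alternatives, Cflar and Il6st in 9, Bmf and Bak1 in 5 and Bax in 1. Sod1, the cytosolic superoxide dismutase, was higher (log2 1.44) and Prdx3, a mitochondrial peroxiredoxin, lower (-1.30). In the sialic acid list St6gal1 (log2 0.85), St8sia6 (0.82), St6galnac3 (1.11), St8sia4 (0.56) and Cmah (0.51) were higher, and Nans (-0.49), St6galnac4 (-0.71) and St3gal6 (-0.64) lower, of 20 tested. St6galnac4 passed in 2 and St3gal6 in 4 of 10 alternatives, and St8sia6 did not pass from WT cells alone (log2 0.51, edgeR adjusted p = 0.209). Of the identity genes, Prdm1 (Blimp-1) was higher (0.50), while Sdc1 (-0.07) and Tnfrsf17 (-0.18) did not pass. Epithelial markers were lower in 7 of 9 tested and higher in 1, the Paneth cell defensin Defa24 (55.0, 43.5 and 341 CPM in lamina propria, 0 in every colon capture), their summed level being 86.2, 67.8 and 406 CPM in lamina propria and 262, 169 and 140 CPM in colon, and their part in these results was not tested.

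Of 194 V genes tested, 26 were called higher and 22 lower in lamina propria, or 24.7%, against 22.2% of all genes. The 3 with the largest change were Igkv12-89, Igkv4-62 and Igkv4-90 (log2 9.38 and 9.00 for the last 2). Igkv12-89 had 31382 UMIs in lamina propria and 0 in colon plasma cells. With the colon taken as 3 counts over all its captures, the ratio in CPM was 1446-fold. Igkv4-62 had 15002 UMIs in lamina propria and 3 in colon, its log2 fold change ran from 4.29 to 14.65 over the alternatives, and it passed in 8 of 9. It stood at 824, 890 and 446 CPM in KO, 0.357, 9.61 and 2060 CPM in het and 0.564, 45.8 and 36.1 CPM in WT lamina propria sums. Igkv4-90 had 15073 UMIs in lamina propria and 4 in colon. Igkv12-89 was the assigned light V gene of 12, Igkv4-62 of 7 and Igkv4-90 of 16 of the 2926 typed lamina propria cells. UMIs of 1 cell are not independent, which the limit of 3 counts does not cover. The colon held only 261 plasma cells, which limits the precision of these values. Whether cells this rare were missed there by sampling was not tested.

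**Figure D5:**
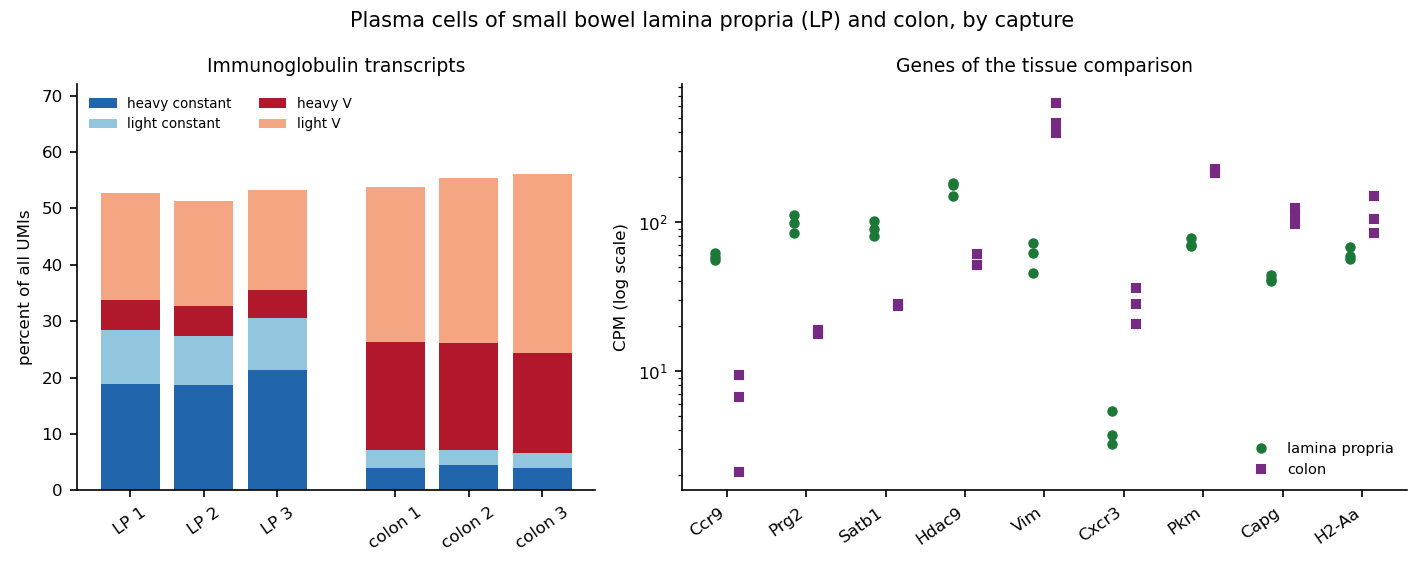
Left, percent of all UMIs of plasma cells taken by heavy and light constant and V genes, stacked, in 3 lamina propria (LP) and 3 colon captures. Right, CPM on a log scale of 9 genes, each point a capture, with heavy constant genes at 18.7% to 21.4% in lamina propria and 3.93% to 4.54% in colon, Ccr9 higher in every lamina propria capture and Cxcr3 and Pkm higher in every colon capture.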

How the data were processed

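The authors deposited count matrices of UMIs, 1 for genes and 1 for hashtags in each tissue, with no normalization. The other deposited columns hold gene, hashtag and cell names. Per the submitters' processing notes, Cell Ranger, Seurat and mm10 were used, with no version given. Per the series' design text, cells outside set gene and molecule limits were removed, and applying its mitochondrial limit of 20% here removed 253 of 21600 lamina propria cells. Barcode endings carry no library label, so captures are numbered in order of the endings, and captures of different tissues were not paired. Genotypes of 1 capture were pooled before capture, so the capture was a block in the fits between genotypes. Deviations from the genotype means within a capture correlated at 0.0221 to 0.104, 0.0281 to 0.0392 and 0.096 to 0.188 in captures 1 to 3.

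Counts were summed per genotype and capture, and tested with edgeR 4.0.16 (R 4.3.3, limma 3.58.1): TMM factors, filterByExpr, quasi-likelihood F test, Benjamini-Hochberg adjustment, threshold 0.05. Printed CPM carry no TMM scaling, with SD over captures. In the fits between genotypes, p-values measure the spread left between sums after genotype and capture are taken out, pooled over the 3 genotypes. In the fit between tissues, they measure the spread between captures within a tissue. Both fits share information on the spread across genes. Shares were compared by exact two-sided permutation tests (scipy 1.17.1, numpy 2.4.6, pandas 2.3.3, python 3.11.15), and figures drawn with matplotlib 3.10.9. These permutation tests did not pair the genotypes of a capture. The fits were tested on simulated data. Alternatives were DESeq2 1.42.0, no block, no low-count filter, leaving out captures, the hashtag check, a stricter rule, no immunoglobulin genes, no cells of the deepest 5%, and, added after seeing the data, no Epcam criterion. No doublet caller was run. Genes named are up to 6 per list by smallest p or highest level, the 10 with the smallest adjusted p in each direction, St8sia6, constant genes, the 6 most used V genes and the 5 genes most like St8sia6 in rank; genes outside it (Zg16, Tff3, those of the 75 cells with most cell-cycle UMIs, Ighv1-20, and genes named to complete a list's count) were chosen after their values were seen. H2-Eb2, Defa30, Hbb-bs and Itln1 in the comparison of KO with WT were also chosen after their values were seen. The members and lists were chosen with earlier results of these data known. Intervals and zero-count limits (3 counts) cover counting error only.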

Additional observations from a re-analysis of the deposited data

Results flagged for a closer look

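The small bowel epithelium, which no comparison above uses, held 23 cells that met the plasma cell rule among 16705, or 0.138%, above the 0.018% that a count of 0 allows. The lamina propria held 2804 cells that met every criterion except the absence of Epcam, beside 3103 members.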

How the results depend on the processing

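The number of genes called in plasma cells depended on the setting. KO over WT gave 8, and 3 with no replicate block, 43 with DESeq2, 103 with no filter on low counts, 3 under the stricter rule, 122 without immunoglobulin genes, and 1 to 10 without any 1 capture (10, 1 and 3 without captures 1, 2 and 3). Het over WT gave 1, and 0 with no replicate block, 25 with DESeq2, 43 with no filter, 31 without immunoglobulin genes, 2 without the deepest 5% of cells, 2 without the Epcam criterion and 2 to 5 without any 1 capture (5, 5 and 2). KO over het gave 0, and 25 with DESeq2, 56 with no filter, 1 under the stricter rule, 31 without immunoglobulin genes and 3 to 12 without any 1 capture (12, 5 and 3). Lamina propria over colon gave 2244, 658 from WT cells only, and 1390 to 1948 without any 1 capture, with 1390 and 1430 without lamina propria captures 2 and 3. The KO minus WT share of plasma cells, 1.53 points, was -9.34 under the hashtag check, which kept 10.6% to 41.7% of KO and 37.4% to 82.5% of WT plasma cells. Without any 1 capture that share ran from -1.14 to 4.36 points, the lambda share from -0.280 to 1.23 points (0.364 with all), heavy V diversity from 0.0759 to 3.75 (1.86 with all) and the cell-cycle share from 1.30 to 2.38 points (1.76 with all). Sdc1 between tissues changed sign without the filter (log2 0.0164, against -0.0666) and ran from -0.110 to 0.0286 without any 1 capture (0.0286 without colon capture 3). Among named genes, 160 values kept their side of the threshold, 35 no longer passed and 2 newly passed. With no replicate block St8sia6 (log2 -0.84) and Cxcl10 (log2 1.02) still passed, and Gm10260, Igfbp7, Gm42031 and Abhd8 did not. The cause of these changes was not tested. The planned comparison of IgM with IgA cells was not run, since no IgM cell was found. With 3 captures a group, exact permutation tests cannot go below p = 0.1, and colon sums of few cells limit the tissue comparison.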
